A study of Homo sapiens with 148 samples.

Results

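ROBO1, ROBO2 and ROBO3, SLIT1, SLIT2 and SLIT3, the neuropilins NRP1 and NRP2, and the semaphorins SEMA3A and SEMA3C are 10 of the 49085 gene names in a table of RNA-seq levels over 6 stages of pancreatic differentiation. They were taken by name, and the names were chosen by their mean TPM values across the stages of this same table, so those values are given as a description and no test was made on them. All cells came from H9, an established human embryonic stem cell (hESC) line, with the genotype given as WT for all 6 stages. The hESCs were cultured on coated plates, and spheroids were formed from them to start the differentiation. The stages are hESCs, definitive endoderm (DE) at day 4, primitive gut tube (PGT) at day 7, pancreatic progenitors (PP) at day 14 and SC-β organoids, the endocrine clusters made from PP, at day 35. The cells were led to DE with Activin A, CHIR99021 and Y27632, and then to PGT with KGF. PP were made with KGF, Sant1, RA, LDN193189, PdBU and Y27632, and SC-β organoids with Sant1, RA, XXI, Betacellulin, Alk5i II and T3. A further stage, PH, is labelled only as PH cells made in vitro by pancreatic differentiation, with no day, protocol or full name given in the sources used here. Each stage has 2 RNA-seq samples, and the deposited table gives their mean, so every value below is the authors' mean TPM without a spread, and whether 2 stages next to each other in an order differ beyond the replicate error could not be judged. A single line was used, so the values describe H9 and its derivatives only.

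Slit proteins are secreted ligands and Robo proteins are their transmembrane receptors, best known for repelling growing axons at the midline of the nervous system. Class 3 semaphorins are secreted as well. They bind neuropilins, which have a short cytoplasmic tail and signal together with plexins, and neuropilins also bind members of the VEGF family. Outside the nervous system these genes act in blood vessels, kidney and migrating neural crest, and in the mouse Slit and Robo genes are known to act in pancreatic progenitors and in the arrangement of islets.

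TPM divides reads by transcript length and scales each stage to a fixed total, so levels can be compared between genes, but the reads behind a value are unknown. A few structural RNAs took from 31.8% of that total in DE to 50.9% in PH, which lowers all other genes of a stage in proportion. The stages were checked against fixed marker lists. The summed level of 5 pluripotency genes was highest in hESCs and that of 4 DE genes in DE. That of 5 pancreatic progenitor genes was highest in PP (50.6 TPM) and that of 5 endocrine genes in SC-β organoids (4115 TPM). The pancreatic progenitor sum was not far lower in PH (39.9 TPM) and SC-β organoids (37.8 TPM). Of its genes, PDX1 and ONECUT1 were highest in PP, SOX9 and PTF1A in PH, and NKX6-1 in SC-β organoids. A list of 5 gut tube and liver genes was as high in SC-β organoids (1319 TPM) as in PGT (1268 TPM), so it did not set PGT apart. In PH, 6 of 6 neuron markers were at 1 TPM or more, with a summed level of 1167 TPM against 74.4 to 136.8 TPM in the other 5 stages, and 6 of 6 neural progenitor markers were present at 220.7 TPM in sum against 0.999 to 22.8 TPM elsewhere. Mesenchyme markers were high in PH (954.6 TPM) and in SC-β organoids (1733 TPM) and reached at most 168.0 TPM in the other stages. These are bulk samples, in which fewer cells of a type and less RNA per cell cannot be told apart.

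The Robo receptors were each highest at a different stage. ROBO1, the most widely expressed receptor of the family, was at 27.1 TPM in hESCs, 69.2 TPM in DE, 65.4 TPM in PGT, 86.0 TPM in PP, 110.8 TPM in PH and 153.9 TPM in SC-β organoids. It was therefore well above 1 TPM at every stage, lowest in hESCs and highest in SC-β organoids, where it was 1.39-fold above PH, the next stage in the order. That order of the top pair turned when the stages were rescaled by their median ratio over commonly expressed genes, which put PH first. The log2 ratio of ROBO1, taken as log2((TPM + 1)/(TPM + 1)) between 2 stages, was 1.32 for DE against hESCs. It was between -0.08 and 0.83 for PGT against DE, PP against PGT, and PH or SC-β organoids against PP. For SC-β organoids against PH it was 0.47. That ratio was 0.05 with structural RNAs left out of the totals, and 0.01 with the 100 most abundant genes left out. ROBO1 lies at chr3:78597239-79767998 on the minus strand (GENCODE version 44, GRCh38).

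ROBO2, the neighbour of ROBO1 at chr3:75906695-77649964 on the plus strand and a Slit receptor known for its part in kidney and axon development, was at 0.841 TPM in hESCs, 3.36 TPM in DE, 149.3 TPM in PGT, 23.0 TPM in PP, 68.5 TPM in PH and 18.7 TPM in SC-β organoids. PGT stood apart, at 2.18-fold the level of PH, the second stage. The log2 ratio of PGT against DE was 5.11, and 13 of the 21679 gene names with a mean of 1 TPM or more over the stages had a larger one. The level was lower again in PP, with a log2 ratio of -2.65 against PGT, and 140 names had a lower ratio there. ROBO2 ranked 519 among all names by level in PGT and 17659 in hESCs.

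ROBO3, a divergent Robo receptor known from commissural neurons, whose mammalian form binds Slits poorly, was at 10.3 TPM in hESCs, 13.2 TPM in DE, 4.22 TPM in PGT, 3.16 TPM in PP, 357.8 TPM in PH and 14.7 TPM in SC-β organoids. PH was 24.4-fold above SC-β organoids, the second stage, and the other 5 stages lay between 3.16 and 14.7 TPM. The log2 ratio was 6.43 for PH against PP, where 4 of 21679 names had a larger one, and -4.52 for SC-β organoids against PH, where 19 had a lower one. ROBO3 ranked 124 among all names by level in PH. The neuron and neural progenitor marker sums given above were also highest in PH, and their part in the level of ROBO3 was not tested. ROBO4, the endothelial Robo, lies beside ROBO3 on the other strand and reached at most 1.16 TPM, also in PH, and 1 of 6 endothelial markers was at 1 TPM or more there. MSANTD2, a further neighbour, was at 16.2 TPM in PH within a range of 8.69 to 30.6 TPM, and the neighbour HEPACAM was listed at 0 in PH.

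The receptor that made up most of the Robo RNA therefore changed between stages. Of the summed level of ROBO1, ROBO2 and ROBO3, ROBO1 held 70.9% in hESCs, 80.7% in DE, 76.7% in PP and 82.2% in SC-β organoids. ROBO2 held 68.2% in PGT, and ROBO3 held 66.6% in PH. The sum itself was 38.2 TPM in hESCs, 85.7 TPM in DE, 218.9 TPM in PGT, 112.1 TPM in PP, 537.1 TPM in PH and 187.3 TPM in SC-β organoids. Shares within a stage do not depend on how the stages are scaled.

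**Figure D1:**
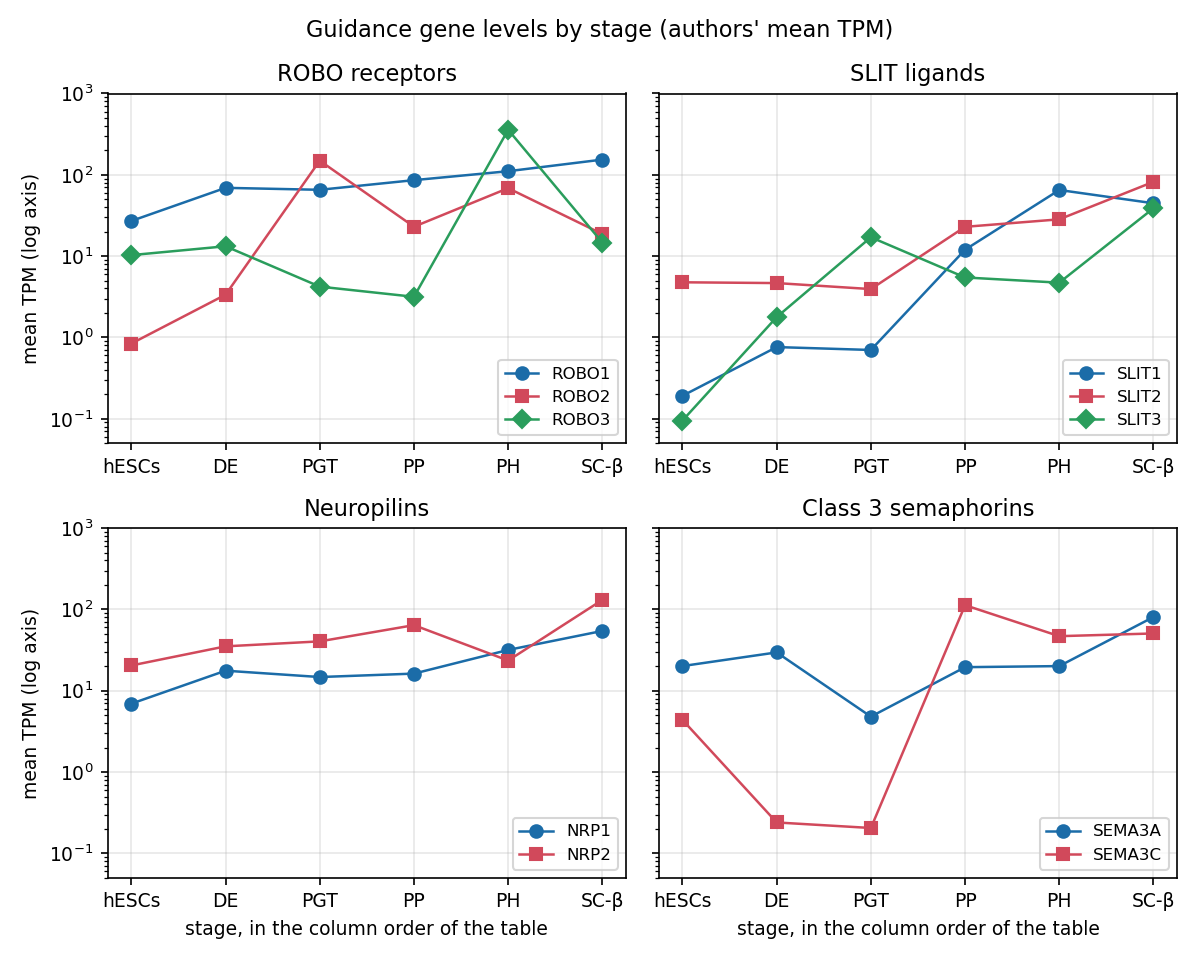
Mean TPM (log axis) of the 10 genes in the 6 stages, in the column order of the table, with 1 panel per gene group. Points are the authors' means of 2 samples and carry no error. ROBO2 peaks in PGT (149.3 TPM) and ROBO3 in PH (357.8 TPM), SEMA3C goes from 0.205 TPM in PGT to 112.7 TPM in PP, and the 3 SLIT genes are lowest in hESCs or PGT.

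The Slit ligands were low in hESCs and higher in SC-β organoids, each with its own order of stages. SLIT1, known mainly from the nervous system, was at 0.192 TPM in hESCs, 0.762 TPM in DE, 0.701 TPM in PGT, 12.0 TPM in PP, 65.1 TPM in PH and 44.7 TPM in SC-β organoids. It stayed under 1 TPM up to PGT and was highest in PH, 1.46-fold above SC-β organoids. For SC-β organoids against PH the log2 ratio was -0.53, and it lay between -0.96 and -1.02 with the other scalings of the stages. The log2 ratio was 2.93 for PP against PGT and 2.35 for PH against PP. SLIT1 lies at chr10:96998038-97185959 on the minus strand, and its antisense transcript SLIT1-AS1 reached at most 2.29 TPM, in SC-β organoids. Whether the counting used strand is not given in the sources used here.

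SLIT2 was at 4.77 TPM in hESCs, 4.66 TPM in DE, 3.93 TPM in PGT, 22.9 TPM in PP, 28.4 TPM in PH and 82.0 TPM in SC-β organoids. The first 3 stages were thus within 1 TPM of each other, and SC-β organoids were 2.89-fold above PH. The log2 ratio was 2.28 for PP against PGT and 1.79 for SC-β organoids against PP. SLIT2 lies at chr4:20251905-20620561 on the plus strand. SLIT2-IT1, a transcript from within that locus that the table lists apart, was at 0.387 TPM in hESCs and reached 10.1 TPM in the SC-β organoids.

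SLIT3 was at 0.0951 TPM in hESCs, 1.78 TPM in DE, 17.1 TPM in PGT, 5.47 TPM in PP, 4.72 TPM in PH and 38.8 TPM in SC-β organoids. It differed from the other Slits in PGT, where its level was above those in DE and PP, and PGT was second to SC-β organoids, which were 2.27-fold higher. The log2 ratio was 2.70 for PGT against DE, -1.48 for PP against PGT and 2.62 for SC-β organoids against PP. SLIT3 lies at chr5:168661740-169301139 on the minus strand.

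The leading Slit changed over the stages too. SLIT2 held 94.3% of the summed Slit level in hESCs, 64.7% in DE, 56.8% in PP and 49.6% in SC-β organoids. SLIT3 held 78.6% in PGT, the stage at which ROBO2 led the Robos, and SLIT1 held 66.3% in PH, the stage at which ROBO3 led them. The summed Slit level was 5.06 TPM in hESCs, 7.20 TPM in DE, 21.7 TPM in PGT, 40.4 TPM in PP, 98.1 TPM in PH and 165.5 TPM in SC-β organoids.

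**Figure D2:**
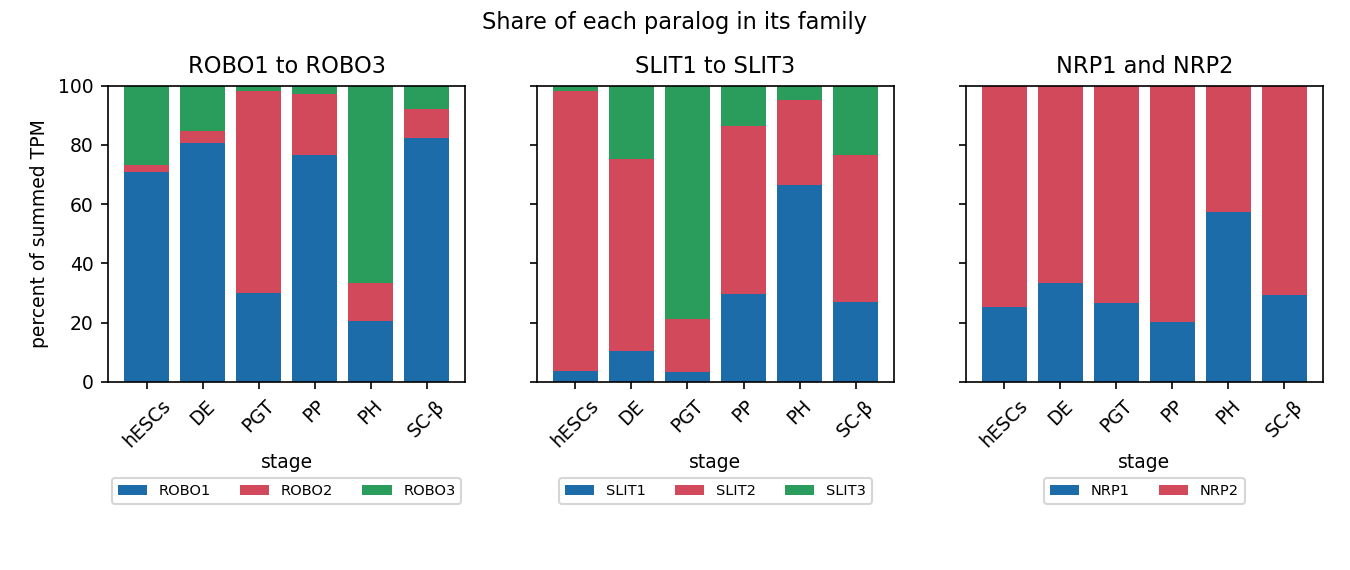
Share of each paralog, in percent of the summed mean TPM of its family, in each stage, as stacked bars. ROBO2 (68.2%) and SLIT3 (78.6%) are the largest parts in PGT, ROBO3 (66.6%) and SLIT1 (66.3%) in PH, and NRP1 exceeds NRP2 in PH only, at 57.5%.

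SLIT2 and SLIT3 share a sequence feature. Each carries a gene for the same mature microRNA, hsa-miR-218-5p, in an intron and on its own strand. MIR218-1 encodes it within SLIT2 at chr4:20528299-20528319, and MIR218-2 encodes it within SLIT3 at chr5:168768211-168768231. The mature sequence from RefSeq (GRCh38.p14) is shown with its seed, bases 2 to 8, in capitals, beside the arms from the other side of each hairpin, whose seeds differ.
hsa-miR-218-5p: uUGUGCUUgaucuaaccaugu
hsa-miR-218-1-3p: aUGGUUCCgucaagcaccaugg
hsa-miR-218-2-3p: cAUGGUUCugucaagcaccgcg
The letters that pair with the 5p seed, AAGCACA, were searched on the transcribed strand of the 3′ untranslated region of each canonical GENCODE transcript. They occurred in 4 of the 10 genes, namely ROBO1, ROBO2, SLIT2 and SLIT3, and in 2733 of 19527 such regions overall (14%). The regions of the 10 genes are longer than most, with a median of 2828 bases against 1064 bases for all, which raises the number of matches of any 7 letters. The receptor matches are shown with their surroundings, with the match in capitals. The ROBO1 site lies at chr3:78597925-78597953 on the minus strand, and the ROBO2 sites lie at chr3:77646500-77646528 and chr3:77648945-77648973 on the plus strand.
ROBO1 3′ UTR: tttggttttaaAAGCACAatcactaaact
ROBO2 3′ UTR, upstream site: tatttggtgatAAGCACAaatctctactc
ROBO2 3′ UTR, downstream site: atgtccaatacAAGCACAgcttcattcat
The ROBO1 match and the upstream ROBO2 match are each followed by a, and the downstream one is not. The ligand sites are at chr4:20619297-20619325 and chr4:20619406-20619434 in SLIT2, on the plus strand, and at chr5:168663641-168663669 in SLIT3, on the minus strand.
SLIT2 3′ UTR, upstream site: aagacaagcagAAGCACAtgcacgaggga
SLIT2 3′ UTR, downstream site: taggacataccAAGCACAtgcgtgtgaat
SLIT3 3′ UTR: aagagtatgggAAGCACActgaggagcag
The 3′ untranslated region of ROBO3, 221 bases long, holds no match. These matches are a description of the letters, and the level of the mature microRNA was not measured. The table lists the precursor names MIR218-1 at up to 2.53 TPM and MIR218-2 at up to 0.608 TPM, both highest in SC-β organoids, and whether these reads came from the precursors or from the host introns was not tested.

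SLIT1 and ROBO3, the genes of the group that were highest in PH, are shown with the 250 bases before their RefSeq start sites on GRCh38.p14. In the ROBO3 window, chr11:124865182-124865431 on the plus strand, the capitals mark GGGCGG, the GC box, and TAATTA, a core motif of homeodomain factors. In the SLIT1 window, chr10:97185960-97186209 on the minus strand, they mark GGGCGG.
ROBO3 upstream: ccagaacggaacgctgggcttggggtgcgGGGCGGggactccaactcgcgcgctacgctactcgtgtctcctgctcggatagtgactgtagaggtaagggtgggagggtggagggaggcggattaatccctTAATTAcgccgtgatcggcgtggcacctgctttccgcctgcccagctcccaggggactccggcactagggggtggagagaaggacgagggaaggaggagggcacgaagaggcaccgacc
SLIT1 upstream: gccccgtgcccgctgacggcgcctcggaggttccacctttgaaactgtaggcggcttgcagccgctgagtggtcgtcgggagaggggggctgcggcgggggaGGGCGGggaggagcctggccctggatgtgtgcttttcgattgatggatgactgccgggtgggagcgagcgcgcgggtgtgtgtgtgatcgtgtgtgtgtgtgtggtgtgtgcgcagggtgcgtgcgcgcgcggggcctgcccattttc
Both windows are rich in G and C, at 64.4% with 20 CpG sites for ROBO3 and 68.4% with 25 for SLIT1, against medians of 58% and 11 over 35116 promoters of the same length. On either strand, GGGCGG occurs in 42.6% and TAATTA in 4.35% of those promoters. The further motifs searched, TATAAA (10.7% of promoters), TGTTTAC (2.98%), AGATAA (9.17%) and CAGCTG (14%), occur in neither window, which says only that these letters are not there. ROBO3 has further RefSeq start sites inside the gene, and which start was used was not measured. Promoter entries were matched for 8 of the 10 genes.

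The neuropilins varied less than the ligands. NRP1, a receptor for SEMA3A and a co-receptor for VEGFA, was at 6.93 TPM in hESCs, 17.6 TPM in DE, 14.7 TPM in PGT, 16.2 TPM in PP, 31.7 TPM in PH and 54.4 TPM in SC-β organoids. DE, PGT and PP were close to each other, and SC-β organoids were 1.71-fold above PH. NRP2, which binds SEMA3F and VEGFC, was at 20.4 TPM in hESCs, 35.1 TPM in DE, 40.4 TPM in PGT, 64.0 TPM in PP, 23.5 TPM in PH and 130.8 TPM in SC-β organoids. Its level in PH was thus close to that in hESCs, while SC-β organoids were 2.04-fold above PP.

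NRP2 exceeded NRP1 in 5 of the 6 stages, with 66.6% to 79.8% of their summed level, and held 42.6% in PH. For PH against PP the log2 ratio of NRP1 was 0.93 and that of NRP2 was -1.41. The ratio of NRP1 was over 1 there, between 1.14 and 1.17, with 3 other scalings of the stages. NRP1 lies at chr10:33177492-33336262 on the minus strand and NRP2 at chr2:205681990-205798133 on the plus strand.

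SEMA3C, a semaphorin known from neural crest and heart outflow development, was at 4.38 TPM in hESCs, 0.240 TPM in DE, 0.205 TPM in PGT, 112.7 TPM in PP, 46.8 TPM in PH and 50.6 TPM in SC-β organoids. It was nearly undetected in DE and PGT and highest in PP, at 2.23-fold the level of SC-β organoids. The log2 ratio of 6.56 for PP against PGT was exceeded by 1 of the 21679 names, and the ratio for DE against hESCs was -2.12.

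SEMA3A, the classical repellent that acts through NRP1, followed another order. It was at 20.1 TPM in hESCs, 29.6 TPM in DE, 4.80 TPM in PGT, 19.5 TPM in PP, 20.1 TPM in PH and 80.6 TPM in SC-β organoids. PGT was the low point and SC-β organoids the high point, 2.72-fold above DE, while hESCs, PP and PH were nearly equal. The log2 ratio was -2.40 for PGT against DE, 1.82 for PP against PGT and 1.99 for SC-β organoids against PP. The semaphorin genes lie on the minus strand of the same chromosome, SEMA3A at chr7:83955777-84492724 and SEMA3C at chr7:80742538-80922359.

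In each comparison, the 10 genes were counted as higher or lower from a 2-fold difference on the log2((TPM + 1)/(TPM + 1)) scale. The counts were set beside the share of the 21679 names past the same mark. All 10 had a mean of 1 TPM or more. For DE against hESCs, 4 of 10 were higher (ROBO1, ROBO2, SLIT3 and NRP1) against 25.8% of all names, and SEMA3C was lower against 4.86%. The median log2 ratio was 0.66 for the group and 0.50 for all names. That count was 1 higher and 1 lower after the stages were rescaled by their median ratio, with SLIT3 at 1.19 and ROBO1 at 0.85.

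For PGT against DE, ROBO2 and SLIT3 were higher (2 of 10, against 4.54% of all names) and ROBO3 and SEMA3A lower (2 of 10, against 8.92%). For PP against PGT the pair that had been higher was now lower (2 of 10, against 6.43%), and SLIT1, SLIT2, SEMA3A and SEMA3C were higher (4 of 10, against 5.68%). These steps share the PGT value, so their opposite signs for ROBO2 and SLIT3 are not independent. The median of the group was -0.06 and then 0.52, beside -0.15 and -0.08 for all names.

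For PH against PP, ROBO2, ROBO3 and SLIT1 were higher (3 of 10, against 8.81%) and NRP2 and SEMA3C lower (2 of 10, against 12.2%). For SC-β organoids against PP, 7 of 10 were higher (against 18.0%), namely ROBO3, the 3 SLIT genes, NRP1, NRP2 and SEMA3A, and SEMA3C was lower (against 1.89%). In the same comparison 8 of 8 mesenchyme markers (median log2 ratio 3.28) and 5 of 5 endocrine markers (2.06) were higher, and for PH against PP 8 of 8 mesenchyme markers (1.89) and 6 of 6 neuron markers (4.29) were. The part of these markers in the levels of the 10 genes was not tested. Both comparisons rest on the same PP value. The group median was 0.33 for PH and 1.74 for SC-β organoids, beside -0.14 and 0.36 for all names. NRP2 had the ratio nearest to the mark for SC-β organoids, 1.02, and was at 0.75 after the median-ratio rescaling. In that comparison SEMA3C, at -1.14, was the only gene of the group called lower, and ROBO1 (0.83) and ROBO2 (-0.28) stayed under 2-fold.

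Set against PH directly, SC-β organoids had higher SLIT2, SLIT3, NRP2 and SEMA3A (4 of 10, against 26.2% of all names) and lower ROBO2 and ROBO3 (2 of 10, against 3.97%). From hESCs to PP, 8 of 10 were higher (against 17.2%) and ROBO3 was lower (against 7.75%). From hESCs to SC-β organoids, 9 of 10 were higher, against 40.0% of all names, 0 of 10 were lower, against 7.05%, and ROBO3 (0.47) stayed under 2-fold. The group median of that last comparison was 3.03 beside 0.72 for all names. Since the genes were chosen with these values known, the counts describe them and are no evidence about guidance genes in general.

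**Figure D3:**
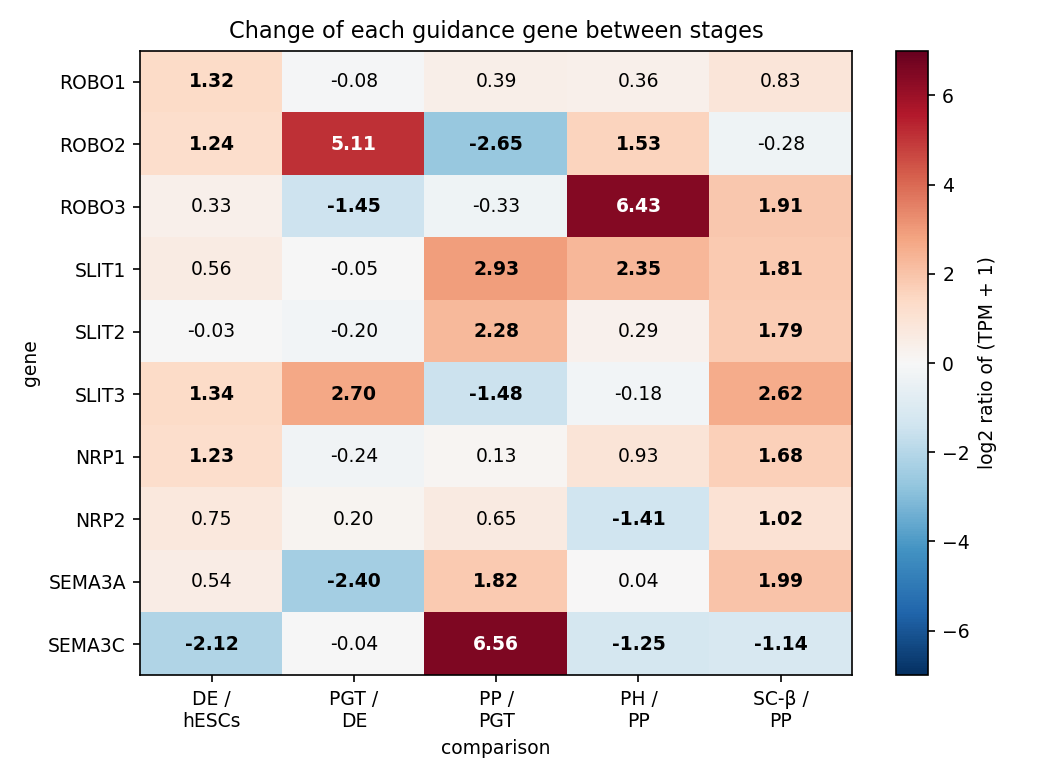
Log2 ratio of (TPM + 1) for each of the 10 genes in 5 stage comparisons, as a colour scale with the value printed in each cell and in bold from 2-fold. PH and SC-β organoids are both set against PP. The largest cells are SEMA3C for PP against PGT (6.56), ROBO3 for PH against PP (6.43) and ROBO2 for PGT against DE (5.11).

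Genes that work with the group were taken from fixed lists, whose counts are read beside the shares of all names already given. The list counts were not recomputed under the other scalings of the stages. For DE against hESCs the median-ratio rescaling moved the median of all names by -0.36, so calls near the mark depend on the scaling there. Of 17 partners of Slit and Robo proteins, 8 were higher and 3 lower for DE against hESCs, where 25.8% of all names were higher and 4.86% lower. Of those 8, SRGAP1, SRGAP2, ARHGAP39, SOS1, DOCK1 and GPC1 had log2 ratios from 1.09 to 1.45. SDC3 (2.36) and FLRT3 (4.55) had larger ones. For PH against PP 3 of the 17 were higher and 3 lower, beside 8.81% and 12.2% of all names. FLRT3, a membrane protein that binds ROBO1, was at 4.90 TPM in hESCs, 137.1 TPM in DE, 396.9 TPM in PGT, 76.9 TPM in PP, 15.4 TPM in PH and 70.5 TPM in SC-β organoids. It was thus highest in PGT, as ROBO2 was. SRGAP3, a GTPase-activating protein that acts downstream of Robo receptors, was at 17.8 TPM in PP, 98.2 TPM in PH and 36.7 TPM in SC-β organoids. Its log2 ratio for PH against PP was 2.40. DOCK1, an exchange factor for Rac, was at 75.7 TPM in PP and 26.8 TPM in PH (-1.46). The list's median for PH against PP was 0.03, beside -0.14 for all names.

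Of 18 partners of semaphorins and neuropilins, 7 were higher and 1 lower for PH against PP, with a median of 0.88, beside 8.81% higher, 12.2% lower and a median of -0.14 over all names. L1CAM, a cell adhesion molecule that forms a complex with NRP1, was at 0.666 TPM in PP and 44.99 TPM in PH, a log2 ratio of 4.79. CHL1, a related adhesion molecule, was at 1.77 TPM in PP and 27.8 TPM in PH (3.38). CRMP1, a cytoplasmic mediator of SEMA3A signalling, was at 29.8 TPM in PP and 227.0 TPM in PH (2.89), and DPYSL3 of the same family was at 39.6 TPM in PP and 195.7 TPM in PH (2.28). DPYSL4, a further member, was at 36.9 TPM in PP and 89.4 TPM in PH (1.26). DPYSL5 and NRCAM were also past 2-fold, at 1.17 and 1.31, and FURIN, a protease that cleaves semaphorins, was lower at -1.36. L1CAM, CHL1, NRCAM, CRMP1 and the named DPYSL genes are also known as neuronal. They were higher in PH than in PP, as the neuron markers were, and the part of those markers was not tested. For SC-β organoids against PP, 3 of 18 were higher and 0 lower, beside 18.0% and 1.89% of all names, a share of higher genes near that background.

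Of the 9 plexins, the signalling partners of neuropilins, 5 were higher and 0 lower for DE against hESCs, beside 25.8% and 4.86% of all names. For PH against PP 4 were higher and 0 lower, beside 8.81% and 12.2%, and for SC-β organoids against PP 4 were higher and 0 lower, beside 18.0% and 1.89%. PLXNA2 was at 1.83 TPM in hESCs, 36.3 TPM in DE, 16.9 TPM in PP, 44.7 TPM in PH and 49.8 TPM in SC-β organoids. PLXNA4 had the largest log2 ratio of the list for DE against hESCs, 4.34, with 0.273 TPM in hESCs and 24.8 TPM in DE. PLXNA3 was at 9.34 TPM in PP and 50.5 TPM in PH, and PLXND1, a receptor for SEMA3E, was at 4.92 TPM in PP, 4.74 TPM in PH and 23.5 TPM in SC-β organoids. PLXNB1 and PLXNB2 had log2 ratios within 0.25 of 0 for PH against PP, at 0.01 and -0.24.

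Of the 5 other class 3 semaphorins, 3 were higher and 0 lower for DE against hESCs, beside 25.8% and 4.86% of all names. SEMA3E, which can act on PLXND1 without a neuropilin, was at 1.10 TPM in hESCs, 180.8 TPM in DE, 29.0 TPM in PGT, 4.39 TPM in PP, 6.82 TPM in PH and 11.5 TPM in SC-β organoids. DE was thus its peak, the stage at which SEMA3C was at 0.240 TPM. SEMA3D was at 31.9 TPM in PGT, 37.1 TPM in PP, 5.26 TPM in PH and 28.2 TPM in SC-β organoids, and it was the only one of the 5 that was lower for PH against PP, by a log2 ratio of -2.61.

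The VEGF family shares neuropilins with the semaphorins. Of its 8 ligands and receptors, 1 was higher and 2 lower for DE against hESCs, beside 25.8% and 4.86% of all names. For SC-β organoids against PP 2 were higher and 1 lower, beside 18.0% and 1.89%. In these comparisons the shares of higher genes were not above or little above the background, and those of lower genes were above it. For SC-β organoids against PH 5 were higher and 0 lower, beside 26.2% and 3.97% of all names. VEGFA was at 22.2 TPM in hESCs, 109.7 TPM in DE, 113.9 TPM in PGT and 46.6 to 81.5 TPM in PP, PH and SC-β organoids. VEGFC, a ligand that binds NRP2, was at 16.8 TPM in PGT and under 3 TPM in the other 5 stages. FIGF, the older symbol of VEGFD, was at 10.2 TPM in PP and reached 34.9 TPM in the SC-β organoids (log2 ratio 1.68), where PGF was at 10.2 TPM after 27.6 TPM in PP (-1.35). The receptor FLT1 was at 48.3 TPM in hESCs and KDR at 20.2 TPM, and both were under 7 TPM in the other 5 stages. Endothelial markers were at 34.3 TPM in sum in hESCs and at 193.7 TPM in DE, of which VWF made up 191.1 TPM. They were at 2.03 to 3.59 TPM in PGT, PP, PH and SC-β organoids.

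Netrins and their receptors form a parallel guidance system, in which DCC attracts and UNC5 receptors repel. Of 12 such genes, 4 were higher and 2 lower for PH against PP, beside 8.81% and 12.2% of all names, and 5 were higher and 0 lower for SC-β organoids against PP, beside 18.0% and 1.89%. DCC, which is known to associate with ROBO receptors, was at 0.119 TPM in hESCs, 0.145 TPM in DE, 0.0397 TPM in PGT, 2.69 TPM in PP, 77.2 TPM in PH and 10.97 TPM in SC-β organoids. It was therefore highest in PH, with ROBO3 and SLIT1. UNC5C went the other way, at 28.8 TPM in PP, 7.36 TPM in PH and 107.1 TPM in SC-β organoids. UNC5D was at 11.3 TPM in PP and 3.08 TPM in PH. For SC-β organoids against PP the log2 ratio was 2.42 for UNC5B, 2.19 for NTNG1 and 1.86 for UNC5C.

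**Figure D4:**
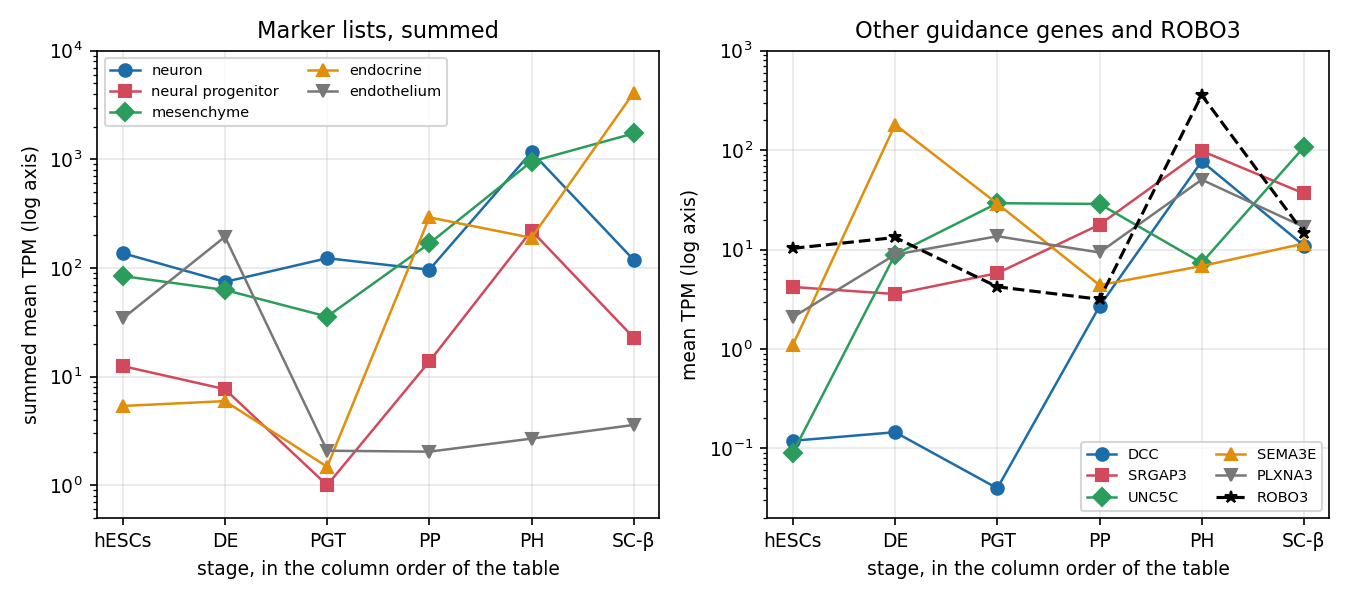
Left, summed mean TPM (log axis) of 5 marker lists in each stage. Right, mean TPM (log axis) of 5 other guidance genes with ROBO3 as a dashed line. Neuron markers (1167 TPM), neural progenitor markers (220.7 TPM), ROBO3, DCC, SRGAP3 and PLXNA3 are all highest in PH, while UNC5C and the endocrine and mesenchyme markers are highest in SC-β organoids.

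The names whose levels ran most like each gene were found by Pearson's r of log2(TPM + 1) over the 6 stages, among 12026 names at 10 TPM or more in at least 1 stage. With 6 points that share a scaled total, high values of r are common, so they are given as a description. By Spearman's rho, between 6 and 89 names tied at 1 for each gene. Of the 3 names given below, 0 were among those tied for SLIT1, SEMA3A and SEMA3C, and 1 or 2 for the other genes. ROBO3 ran most like KIF5A (r = 0.997), FAM219A and TMEM59L, and 40 candidates had r above 0.95. SLIT1 ran most like HOXA5 (r = 0.997), ZIC1 and HOXC4, with 138 above 0.95. ZIC1 was at 17.2 TPM in PP, 172.8 TPM in PH and 73.7 TPM in SC-β organoids, the same order of these stages as for SLIT1. It was under 0.2 TPM in hESCs, DE and PGT.

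SLIT2 ran most like RERG (r = 0.999), CNRIP1 and NEUROD1, with 101 candidates above 0.95, and SLIT3 most like SNORD89 (r = 0.995), PPIL2 and GLUD1P3, with 54. ROBO2 ran most like DDX56 (r = 0.989), ADAMTS6 and HID1, with 18 above 0.95, and ROBO1 most like DNAJC17 (r = 0.999), DIP2A and XPA, with 278. The steps of these names can be far smaller than those of the gene they follow. DDX56 ranged from 29.9 to 46.3 TPM where ROBO2 ranged from 0.841 to 149.3 TPM.

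NRP1 ran most like PIEZO2 (r = 0.994), TRAF3IP2-AS1 and MAP3K2, with 129 above 0.95, and NRP2 most like BAALC-AS1 (r = 0.999), MTR and TXLNA, with 38. SEMA3A ran most like ARFGEF3 (r = 0.979), DNAH7 and GALNT18, with 13 above 0.95, the fewest of the 10. SEMA3C ran most like SKAP2 (r = 0.988), NGFR and HOTAIRM1_5, with 20. NGFR was at 6.32 TPM in hESCs, 0.527 TPM in DE, 0.226 TPM in PGT, 49.7 TPM in PP, 23.2 TPM in PH and 19.6 TPM in SC-β organoids. It shared with SEMA3C the near absence in DE and PGT and the peak in PP. Within the group, the pairs with the highest r were ROBO1 with NRP1 (0.96), SLIT1 with SLIT2 (0.93) and SLIT2 with SEMA3C (0.86).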

How the data were processed

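RNA-seq was measured in 12 samples, 2 at each of 6 stages, among 148 samples of the series, and the other assays are not analysed here. Per the submitters' processing notes, reads were aligned with HISAT2 (version 2.2.0) to hg38 and quantified with StringTie (version 2.1.6). The authors deposited TPM per gene averaged over the replicates of a stage, so no spread, depth, interval or test could be obtained. The annotation behind the table is not given in the sources used here. RiboMinus is named in the methods and a TruSeq Stranded mRNA kit in the labels.

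Entries that share a name (231 of 49085 names) were summed. Log2 ratios used a pseudocount of 1 TPM, which understates the change of genes with low levels, and a change was counted from 2-fold. The background was the 21679 names with a mean of 1 TPM or more. All 10 genes of the group were named, genes past 2-fold in the pathway lists could be named, those with the highest TPM in any stage before others, without all being named, and the 3 names with the highest Pearson r were given for each gene. The genes, lists and alternatives were chosen with earlier results of these data known. The alternatives were a pseudocount of 0.1 TPM, a median-ratio rescaling, totals without structural RNAs or without the 100 most abundant genes, the highest entry of a name, a 4-fold threshold and no filter. Spearman's rho was the alternative to Pearson's r. The code for the ratios and the rescaling was run on simulated data with 4-fold changes, without noise, in genes at 10 TPM or more. That run checks the code only and says nothing about genes near 0 TPM. Python 3.11.15, numpy 2.4.6, pandas 2.3.3 and matplotlib 3.10.9 were used. Sequences came from RefSeq (GRCh38.p14) and GENCODE version 44.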

Additional observations from a re-analysis of the deposited data

How the results depend on the processing

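No paired analysis was possible because the deposited columns hold stage means of the 2 samples, and for the same reason no replicate could be left out. A total of 400 log2 ratios of the 10 genes were recomputed under the alternatives with another pseudocount, scaling or treatment of repeated names. Of these, 388 kept their side of the 2-fold mark, 7 fell under it, 5 passed it and 0 turned a called direction. The 388 include 80 from taking the highest entry of a name, which could not change, since each of the 10 genes has 1 entry. The counts and highest stages recomputed with the highest entry could not change either. Under the median-ratio rescaling, which moved the median of all names by -0.36 for DE against hESCs and by -0.41 for SC-β organoids against PH or hESCs, 1 gene in place of 4 was higher for DE against hESCs. Leaving the structural RNAs or the 100 most abundant genes out of the totals moved that median most for SC-β organoids against PH, by -0.34 and -0.37. With a 4-fold threshold, 0 genes were higher for DE against hESCs, 1 was lower for PGT against DE, 1 lower for PP against PGT and 0 lower for PH against PP. With that threshold 1 was higher and 0 lower for SC-β organoids against PP, 2 were higher and 1 lower for SC-β organoids against PH, and 5 were higher and 0 lower for PP against hESCs. These counts are smaller by the construction of a higher mark. The other 85 of 96 recomputed counts stayed within 1.5 times the main count. Without the filter on low values, the share of all names past 2-fold was lower in every comparison and direction, for example 12.9% in place of 25.8% higher for DE against hESCs, 10.6% in place of 18.0% higher for SC-β organoids against PP, 5.14% in place of 8.81% higher for PH against PP and 22.2% in place of 40.0% higher for SC-β organoids against hESCs, since names near 0 TPM then count as tested. ROBO3 for PH against PP ranged from 6.43 to 6.85 and SEMA3C for PP against PGT from 6.56 to 8.53. The stage of the highest level was kept in 39 of 40 recomputations, and the exception was ROBO1, which was highest in PH after the median-ratio rescaling. That rescaling divided levels by 0.841 in PH and by 1.19 in SC-β organoids, which turned the 1.39-fold difference between them.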
